A study of Mus musculus with 4 samples.

Results

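Nicotinic acetylcholine receptors and the machinery that makes, carries and breaks down acetylcholine were examined as a set of 10 named mouse genes. The set was fixed by symbol, with no threshold on a measured value, though earlier results of these data were known. The symbols were mapped to the Entrez identifiers of the table of read counts, and 9 of the 10 were found among its 12700 genes. They were 6 receptor subunits (Chrna3, Chrna4, Chrna6, Chrna7, Chrnb2, Chrnb3) and 3 genes of acetylcholine handling (Chat, Slc5a7, Ache), while Slc18a3, the vesicular acetylcholine transporter, was not analysed here.

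RNA was sequenced from the brain of C57BL/6 mice aged 9 months, either Ids-/- (Ids-ko), the model of the lysosomal storage disorder Hunter syndrome, or wild type (wt) littermates. RNA of 7 mice per genotype was pooled, and each pool gave 1 library in each of 2 areas, so that there were 4 libraries and no replicates. The area Cx was cerebral cortex, and the area M was midbrain, diencephalon and hippocampus, in which the study's methods also place the striatum. The libraries are named CxH and MH (Ids-ko) and CxWT and MWT (wt), as the labels give them.

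Acetylcholine is made by choline acetyltransferase (Chat) from choline that the high-affinity transporter Slc5a7 brings into the nerve ending, and acetylcholinesterase (Ache) breaks it down in the synapse. In the brain it is released by interneurons of the striatum, by projection neurons of the basal forebrain and brainstem, and by neurons of the medial habenula and cranial motor nuclei. Nicotinic receptors are pentameric ion channels: Chrna4 with Chrnb2 forms the widespread high-affinity receptor, Chrna7 forms a receptor of its own, Chrna3 is best known with Chrnb4 in the habenula and autonomic ganglia, and Chrna6 with Chrnb3 is enriched in dopamine neurons and in retinal projections.

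The libraries held 16380080 to 23475080 reads on genes, which was 56.6 to 61.0% of the aligned reads. Levels are given as reads per 1000000 aligned reads (RPM), and at this depth 3 reads corresponded to 0.0779 to 0.104 RPM. Before any comparison the libraries were set against their labels. Ids, the disrupted gene, had 135 RPM in CxH and 155 in MWT, but 354 in CxWT and 368 in MH, so that the library labelled MH had more Ids reads than the library labelled MWT. The 10 cortical excitatory neuron markers summed to 1637 RPM in CxH and 1506 in MH, against 209 in CxWT and 152 in MWT, and the 10 midbrain and diencephalon markers analysed, of 12 listed, summed to 34.8 and 46.6 RPM against 427 and 368. By these sums CxH and MH were alike, and so were CxWT and MWT, although the labels put CxH with CxWT and MH with MWT in 1 area each. Whether libraries were exchanged was not tested. If they were, CxH vs. CxWT and MH vs. MWT may not compare the genotypes within an area. Every "Cx", "M", "Ids-ko" and "wt" in the following refers to the label of a library only, and whether a ratio belongs to genotype or to area cannot be told apart in the pairs that the labels define.

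The 250 bases before the RefSeq start of 5 of the genes are shown because these genes lay together on the low side of CxH and MH while their upstream sequences were unlike. The sequences are those of RefSeq (GRCm38.p6), which were matched for 7 of the 9 genes, and those of Chrna6 and Chrnb3 were not analysed here. Each is written 5′ to 3′ on the strand of its gene, with matches to the GC box (GGGCGG on either strand, overlapping matches included) in capitals. The stretches are chr9:55026563-55026812 for Chrna3, chr2:181039178-181039427 for Chrna4, chr14:32465910-32466159 for Chat and chr17:54299035-54299284 for Slc5a7, all on the minus strand, and chr5:137288004-137288253 for Ache on the plus strand. These positions are on another build than the counts, which were made on NCBI37/mm9.
Chrna3: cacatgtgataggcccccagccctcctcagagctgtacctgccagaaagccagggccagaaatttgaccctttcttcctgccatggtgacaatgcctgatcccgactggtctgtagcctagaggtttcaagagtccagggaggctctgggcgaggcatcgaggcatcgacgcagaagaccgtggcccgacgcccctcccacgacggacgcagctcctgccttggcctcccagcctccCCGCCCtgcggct
Chrna4: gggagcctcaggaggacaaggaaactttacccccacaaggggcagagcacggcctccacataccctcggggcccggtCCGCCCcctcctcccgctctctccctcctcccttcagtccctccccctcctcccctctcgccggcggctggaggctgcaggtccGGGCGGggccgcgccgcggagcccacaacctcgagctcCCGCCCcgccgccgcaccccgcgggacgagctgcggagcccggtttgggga
Chat: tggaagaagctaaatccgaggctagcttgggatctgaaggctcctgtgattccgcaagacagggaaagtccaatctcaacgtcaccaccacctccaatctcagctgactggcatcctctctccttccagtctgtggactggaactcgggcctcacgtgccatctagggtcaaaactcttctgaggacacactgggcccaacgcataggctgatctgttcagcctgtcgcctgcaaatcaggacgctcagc
Slc5a7: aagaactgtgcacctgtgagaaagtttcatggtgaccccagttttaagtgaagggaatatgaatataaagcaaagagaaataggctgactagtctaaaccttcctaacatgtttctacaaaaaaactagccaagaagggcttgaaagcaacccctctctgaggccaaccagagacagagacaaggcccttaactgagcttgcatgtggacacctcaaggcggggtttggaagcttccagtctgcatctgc
Ache: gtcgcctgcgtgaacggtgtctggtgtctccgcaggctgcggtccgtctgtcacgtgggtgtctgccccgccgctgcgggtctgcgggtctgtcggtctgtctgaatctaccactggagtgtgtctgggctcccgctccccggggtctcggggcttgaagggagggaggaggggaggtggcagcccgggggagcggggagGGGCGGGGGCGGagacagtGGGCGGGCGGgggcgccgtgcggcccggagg

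Over all 32851 sequences of this length, 32.7% held a GC box, and the median GC content was 52.4% with a median of 6 CpG. The Ache sequence held 4 GC boxes, some of them overlapping, and 25 CpG at a GC content of 73.6%, and that of Chrna4 held 3 GC boxes and 24 CpG at 74.4%. The Chrna3 sequence held 1 GC box and 13 CpG at 63.2%. The sequences of Chat and Slc5a7 held no GC box, with 8 CpG at 54.8% and 1 CpG at 45.6%. That of Slc5a7 was the only one of the 7 with TATAAA (searched on both strands), which 12.4% of all upstream sequences held. Of the sequences not printed, that of Chrna7 held 1 GC box and 25 CpG at 67.2%, and that of Chrnb2 held no GC box and 10 CpG at 59.6%. These matches describe letters only.

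In the pair labelled Ids-ko and wt in the area Cx (CxH vs. CxWT), 7 of the 9 genes were lower in CxH and none was higher. In MH vs. MWT, 8 were lower and none was higher. The 7 genes lower in CxH were also lower in MH, and 6.46% of all genes were lower in both. By the rule of the study, a call needed a p under 0.05 in a Poisson likelihood ratio test of the reads of 2 libraries, together with a log2 ratio of RPM of at least 0.7 in size. Of all 12700 genes, 11.5% were called lower in CxH and 9.46% higher, and 12.7% were called lower in MH and 12.3% higher. The median log2 ratio of the 9 genes was -1.61 in CxH vs. CxWT and -1.60 in MH vs. MWT, beside -0.09 and -0.07 over all genes. Such a test compares 2 libraries and not 2 conditions. All standard errors (SE) and intervals given here cover counting error only, and in bulk tissue fewer cells of a type and less RNA per cell cannot be told apart.

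**Figure D1:**
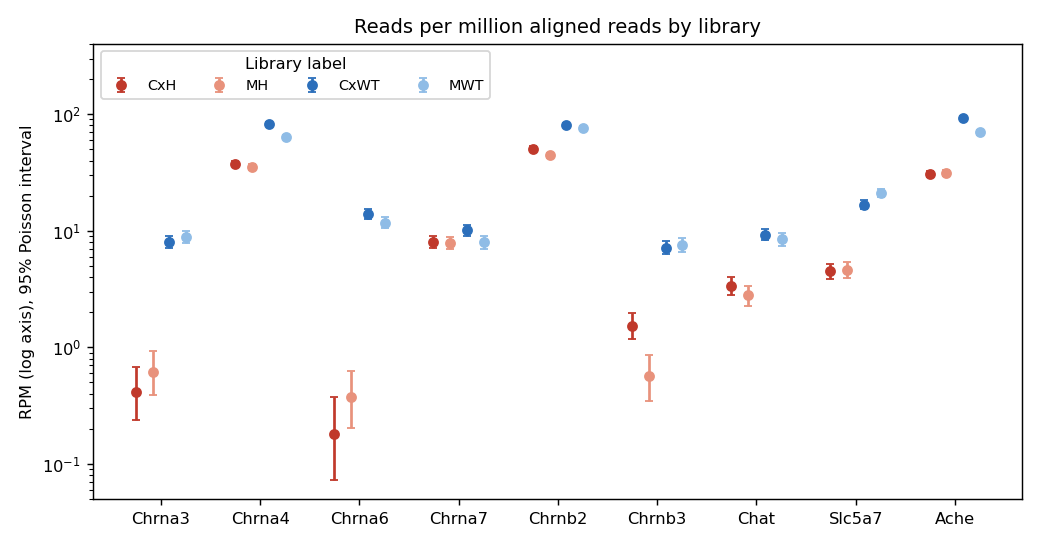
Level of each of the 9 genes in each library, in RPM on a log axis, with 95% exact Poisson intervals that cover counting error only. For Chrna3, Chrna4, Chrna6, Chrnb2, Chrnb3, Chat, Slc5a7 and Ache both CxH and MH lie below both CxWT and MWT, and for Chrna7 the 4 libraries lie between 7.84 and 10.1 RPM.

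Among the 9 genes, the subunits Chrna6, Chrna3 and Chrnb3 were farthest from 0 in both comparisons. The study kept only genes whose length was covered well enough by reads. Genes with as few reads as Chrna6, Chrna3 and Chrnb3 in CxH and MH may be in the table only through CxWT and MWT. In those libraries they were high. Their presence among the genes tested is then not independent of the direction of their ratios, which, with the counts over the 9 genes that contain them, are given as a description. Chrna6, an alpha subunit enriched in midbrain dopamine neurons, had 7 reads or 0.182 RPM in CxH (95% exact Poisson interval 0.0731 to 0.375), 468 reads or 13.9 RPM in CxWT, 14 reads or 0.375 RPM in MH and 339 reads or 11.7 RPM in MWT. CxH and MH were the low libraries, with reads few but above 3 in each, and their intervals lay far below those of CxWT and MWT. It was 76.6-fold lower in CxH than in CxWT (log2 ratio -6.26 ± 0.55, counting SE) and 31.3-fold lower in MH than in MWT (-4.97 ± 0.39). Chrnb3, a beta subunit that assembles with Chrna6, had 1.53 RPM in CxH and 0.562 in MH, against 7.17 in CxWT and 7.57 in MWT. Here too CxWT and MWT were the high libraries, but CxH stood above MH. The log2 ratio of Chrnb3 was -2.23 ± 0.21 in CxH vs. CxWT and -3.75 ± 0.33 in MH vs. MWT.

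Chrna6 and Chrnb3 are neighbours on chromosome 8 in NCBI37/mm9. By GENCODE M1, Chrnb3 lies on the plus strand from 28479183 to 28510201 and Chrna6 on the minus strand from 28513686 to 28524416, with 3484 bases between them. Per transcript length, Chrna6 had 0.187 times the level of Chrnb3 in CxH (95% counting interval 0.0856 to 0.410) and 1.05 times in MH, against 3.07 times in CxWT and 2.45 times in MWT. The order of the pair was thus reversed in CxH, and in MH the interval of 0.536 to 2.07 held equality. The ratio of Chrnb3 in CxH vs. CxWT was closer to 0 than that in MH vs. MWT, with a difference of the log2 ratios of 1.52 ± 0.39 (95% counting interval 0.76 to 2.29).

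Chrna3, the alpha subunit of the habenular and ganglionic receptor, had 16 reads or 0.416 RPM in CxH, 271 reads or 8.06 RPM in CxWT, 23 reads or 0.616 RPM in MH and 257 reads or 8.88 RPM in MWT. The intervals of CxH and MH overlapped, as did those of CxWT and MWT, and the pairs were far apart from each other. The gene was 19.4-fold lower in CxH vs. CxWT (log2 ratio -4.28 ± 0.37) and 14.4-fold lower in MH vs. MWT (-3.85 ± 0.31). It lies on chromosome 9 from 54859150 to 54874366 on the minus strand, 1596 bases from Chrnb4, the beta subunit with which it forms receptors. Chrnb4 was the only one of 10 other nicotinic subunits listed that was analysed here, and it was called lower in both comparisons, with 25 reads in CxH, 15 in MH, 137 in CxWT and 88 in MWT. Its log2 ratio was -2.65 ± 0.31 in the Cx pair and -2.92 ± 0.40 in the M pair. With so few reads in CxH and MH, Chrnb4 too may be in the table only through CxWT and MWT. Its ratios are therefore given as a description.

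The subunits of the widespread receptors had higher levels and smaller ratios. Chrna4, on chromosome 2 from 180753085 to 180778251, had 37.5 RPM in CxH, 35.2 in MH, 83.1 in CxWT and 63.6 in MWT. Chrnb2, its partner, on chromosome 3 from 89557370 to 89568554, had 50.6, 44.5, 80.5 and 76.04 RPM in the same order. For both, CxH and MH were the low libraries, and no Poisson interval of a low library reached one of a high library. Chrna4 was called lower in CxH (log2 ratio -1.15 ± 0.05) and in MH (-0.85 ± 0.05). At a log2 threshold of 1 the call of Chrna4 in MH was lost. Chrnb2 was called lower in MH vs. MWT (-0.77 ± 0.05), a call that ended at a threshold of 1 and with an assumed variation of 0.2 between pools. In CxH vs. CxWT its log2 ratio of -0.67 ± 0.04 fell short of the threshold of 0.7 by less than its SE, and it passed with the GC and length correction (-0.82).

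Chrna7, the subunit of the homomeric receptor, on chromosome 7 from 70243578 to 70357455, was not called in any of the 6 pairs of libraries. It had 8.03 RPM in CxH (7.16 to 8.97), 10.1 in CxWT (9.04 to 11.2), 7.84 in MH (6.97 to 8.79) and 7.95 in MWT (6.95 to 9.04). The interval of CxWT lay above those of CxH and MH, and that of MWT reached its lower end. The log2 ratio was -0.33 ± 0.11 in CxH vs. CxWT, with a 95% counting interval of -0.55 to -0.11, and -0.02 ± 0.13 in MH vs. MWT, with an interval of -0.27 to 0.23. The first ratio was -0.24 with TMM scaling, and with the GC and length correction it was -0.08, smaller than its SE. The ratio in MH vs. MWT became 0.33 with that correction, above its interval.

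**Figure D2:**
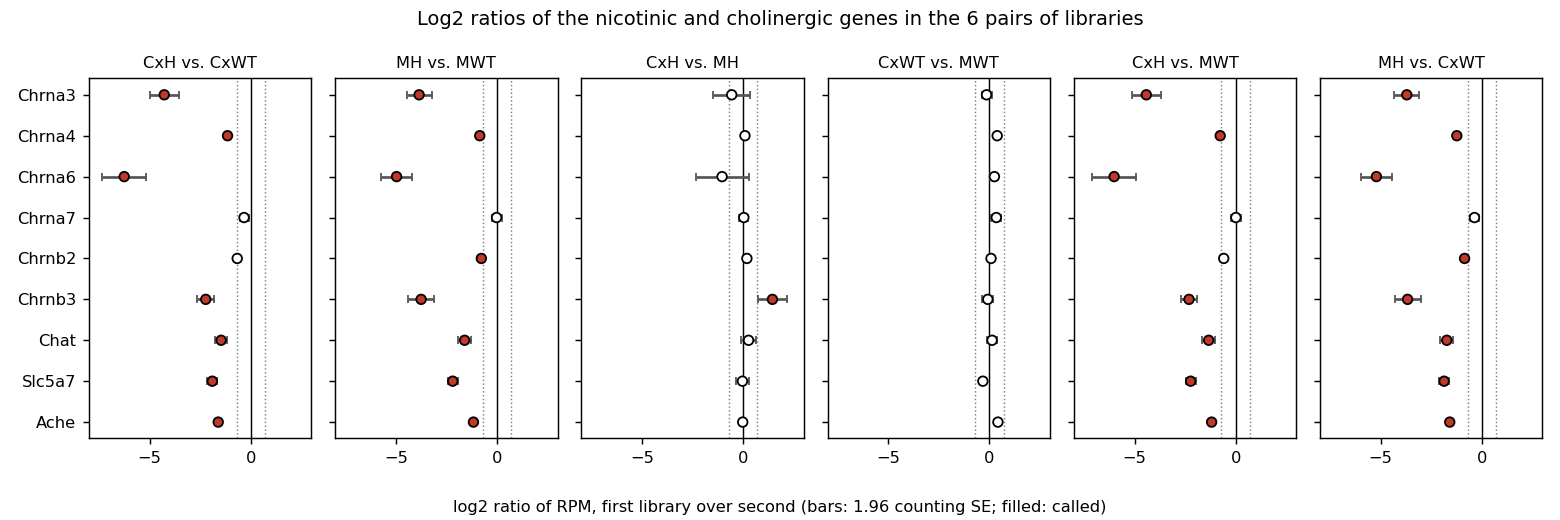
Log2 ratio of RPM of each gene in the 6 pairs of libraries, first library over second, with bars for the 95% counting interval, filled points for called genes and dotted lines at 0.7 and -0.7. In CxH vs. MH and CxWT vs. MWT a single point, that of Chrnb3 in CxH vs. MH, is filled, and in the other 4 pairs every filled point lies on the negative side.

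The genes of acetylcholine handling were lower in both comparisons as well. Chat, the synthesising enzyme and the defining marker of cholinergic neurons, had 129 reads or 3.35 RPM in CxH, 311 reads or 9.25 RPM in CxWT, 104 reads or 2.78 RPM in MH and 244 reads or 8.43 RPM in MWT. It was 2.76-fold lower in CxH vs. CxWT (log2 ratio -1.47 ± 0.15) and 3.03-fold lower in MH vs. MWT (-1.60 ± 0.17). Chat lies on chromosome 14 from 33221389 to 33279095 on the minus strand. A noncoding gene of the opposite strand, Gm2990, shares 868 bases with it, RefSeq places Slc18a3 inside it, and whether counting used the strand is not given in the sources used here, so reads of these genes may not be separated.

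Slc5a7, the choline transporter of cholinergic endings, on chromosome 17 from 54412919 to 54438359, had 4.49 RPM in CxH, 4.60 in MH, 16.8 in CxWT and 21.0 in MWT. CxH and MH were alike within counting error, and MWT was the highest library. The log2 ratio was -1.90 ± 0.13 in CxH vs. CxWT and -2.19 ± 0.12 in MH vs. MWT. Ache, the degrading enzyme, on chromosome 5 from 137728747 to 137735694, had 30.7 RPM in CxH, 31.2 in MH, 93.5 in CxWT and 69.8 in MWT. It too had nearly equal levels in CxH and MH, but its highest library was CxWT. The log2 ratio was -1.61 ± 0.05 in CxH vs. CxWT and -1.16 ± 0.05 in MH vs. MWT.

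The log2 ratios of the areas were also set against each other, as CxH vs. CxWT minus MH vs. MWT. The difference was -0.45 ± 0.07 for Ache (95% counting interval -0.59 to -0.30) and -0.30 ± 0.07 for Chrna4 (-0.43 to -0.16). Both genes were farther apart in the Cx pair than in the M pair, opposite to Chrnb3, but correcting for GC and transcript length brought the differences to -0.25 for Ache and -0.14 for Chrna4. For the other 6 genes the counting interval of the difference held 0, except that Chrnb2 passed under each other scaling (0.13 to 0.15) and with the correction (0.22), as did Chrna6 (-1.38) and Chrna7 (-0.40) with the correction. With 1 library per condition, the difference of these ratios between the areas could not be tested over replicates.

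In the comparisons between areas, the labelled genotypes were kept and few of the genes were called. In CxH vs. MH, Chrnb3 alone was called, higher in CxH (log2 ratio 1.45 ± 0.37, from 59 and 21 reads), and none was called lower, while 2.43% of all genes were called higher and 1.06% lower. In CxWT vs. MWT none of the 9 genes was called in either direction, beside 5.43% of all genes called higher in CxWT and 2.11% lower. Scaled by aligned reads, Ache had 0.42 ± 0.04 and Chrna4 0.39 ± 0.04 there, but with the correction for GC content and length these were -0.0099 and 0.12, while Chrna7 and Chrna6 had 0.59 and 0.41. Slc5a7 lay on the other side, with -0.32 ± 0.08, and had -0.10 with the correction. The median log2 ratio of the 9 genes was 0.03 between CxH and MH and 0.13 between CxWT and MWT, against 0.01 and 0.04 over all genes.

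The 2 remaining pairs differ in both labels, area and genotype, and were run because Ids had similar levels within them. In CxH vs. MWT, 7 of the 9 genes were called lower in CxH and none higher, beside 15.1% of all genes lower and 15.6% higher. In MH vs. CxWT, 8 were called lower in MH and none higher, beside 8.89% lower and 6.41% higher. The medians of the 9 genes were -1.33 and -1.73. Chrna6 again had the lowest ratios, -6.01 ± 0.55 and -5.22 ± 0.39, and Chrna3 followed with -4.42 ± 0.37 and -3.71 ± 0.31. Chrnb2 was called in MH vs. CxWT (-0.85 ± 0.05) and not in CxH vs. MWT (-0.59 ± 0.05). These pairs share their libraries with the pairs above, and their values do not add independent evidence.

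To compare the genes with each other, levels were divided by the length of the longest coding transcript (RPKM). Ache had the highest RPKM of the 9 genes in every library, with 14.0 in CxH, 14.3 in MH, 42.8 in CxWT and 31.9 in MWT. Chrnb2 and Chrna4 came next in every library. Chrnb2 had 9.40 RPKM and Chrna4 8.22 in CxH, where their intervals did not overlap. Chrna4 stood above Chrnb2 in CxWT, with 18.2 against 14.9, and in MH and MWT the intervals of the pair overlapped. Chrna7 followed them in CxH (2.85 RPKM) and MH (2.79), but in MWT its 2.82 RPKM could not be separated from Chrna3 (2.84) or Chat (3.00). Chrna6 ranked last in CxH with 0.0626 RPKM, beside Chrna3, whose interval overlapped, and it followed Chrna4 and Chrnb2 in CxWT with 4.79. Per length, Slc5a7 had 0.728 times the level of Chat in CxH (95% counting interval 0.580 to 0.915) and 1.35 times in MWT (1.16 to 1.57), while the intervals of CxWT and MH held equality. These levels depend on the length taken. With the median transcript length in place of the longest, Ache had 75.0 RPKM in CxH, 76.2 in MH, 228.6 in CxWT and 170.5 in MWT, still above the other genes. Chrna4 then had 25.9, 24.4, 57.4 and 43.9 RPKM in that order and stood above Chrnb2 in every library.

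The makeup of the 6 subunits can be read as the share of each in their summed RPKM. Chrna4 and Chrnb2 together made 83.9% of it in CxH and 83.2% in MH, against 72.6% in CxWT and 71.2% in MWT. Chrna3, Chrna6 and Chrnb3 together made 2.52% in CxH and 2.33% in MH, against 19.6% in CxWT and 21.6% in MWT. With few reads in CxH and MH, these genes may be in the table only through CxWT and MWT, so their shares are a description. Chrnb4 and the subunits not analysed here were not in the sum. The share of Chrna7 was 13.6% and 14.5% in CxH and MH and 7.85% and 7.17% in CxWT and MWT, where the summed level of the other subunits was higher. With the median transcript length, Chrna4 and Chrnb2 made 89.0% in CxH and 88.6% in MH, against 83.9% in CxWT and 82.3% in MWT. Chrna3, Chrna6 and Chrnb3 then made 1.35% in CxH and 1.24% in MH, against 10.5% in CxWT and 12.3% in MWT.

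**Figure D3:**
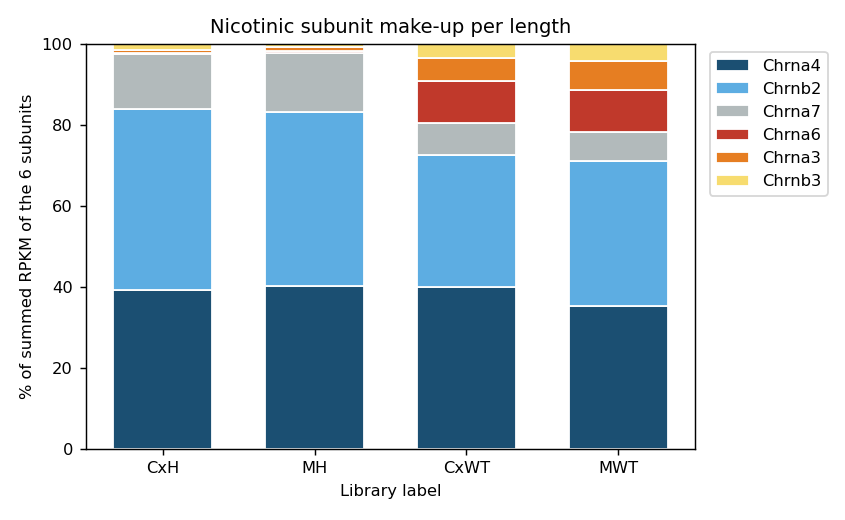
Share of each of the 6 receptor subunits in their summed RPKM (percent, stacked bars) in each library, with the longest coding transcript as length. Chrna3, Chrna6 and Chrnb3 together fill 2.52% of the bar in CxH and 2.33% in MH, and 19.6% in CxWT and 21.6% in MWT. Their shares rest on few reads in CxH and MH.

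The genes around this system were read from lists of related genes. Of 13 genes of cholinergic neurons listed, 7 were analysed here, with median log2 ratios of -2.06 in CxH vs. CxWT and -1.64 in MH vs. MWT. All 7 were called lower in both comparisons, beside 6.46% of all genes. This count is no support for a direction, because the coverage filter may have kept genes with few reads in CxH and MH, such as Lhx8 (45 and 34 reads), through CxWT and MWT (112 and 100 reads), and the other 6 genes listed were not analysed. Among them, Lhx8, a transcription factor of forebrain cholinergic neurons, had log2 ratios of -1.51 and -1.92, and Isl1, a transcription factor of motor and striatal cholinergic neurons, had -1.67 and -1.39. Slc10a4, a vesicle protein of cholinergic and monoaminergic neurons, had -2.25 and -3.14. Ngfr, the low-affinity neurotrophin receptor of basal forebrain neurons, had -2.06 and -1.10. The same 7 genes were called lower in CxH vs. MWT and MH vs. CxWT, beside 15.1% and 8.89% of all genes.

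The receptor accessory proteins and the general enzymes of choline metabolism had smaller ratios. Of 9 accessory proteins 7 were analysed, with medians of 0.08 in CxH vs. CxWT and -0.20 in MH vs. MWT. In CxH vs. CxWT 1 was called higher and 2 lower, and in MH vs. MWT 1 was called lower. Of all genes, 9.46% were called higher and 11.5% lower in CxH, and 12.7% lower in MH. Lypd6b, a Ly6 protein that binds nicotinic receptors, was lower in both (-0.95 and -0.95), and Tmem35a, the chaperone NACHO of the Chrna7 receptor, was called lower in CxH vs. CxWT (-0.96, and not called at -0.23 in MH vs. MWT). Ly6e was higher in CxH (0.92) and had 0.68 in MH vs. MWT. Ric3, another receptor chaperone, was not called (-0.49 and -0.53). Of 10 genes of acetylcholine and choline metabolism 8 were analysed. Bche, the cholinesterase related to Ache, was called lower in CxH (-0.94, and -0.40 in MH vs. MWT), no other gene of that list was called in either comparison, and both medians were -0.34.

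**Figure D4:**
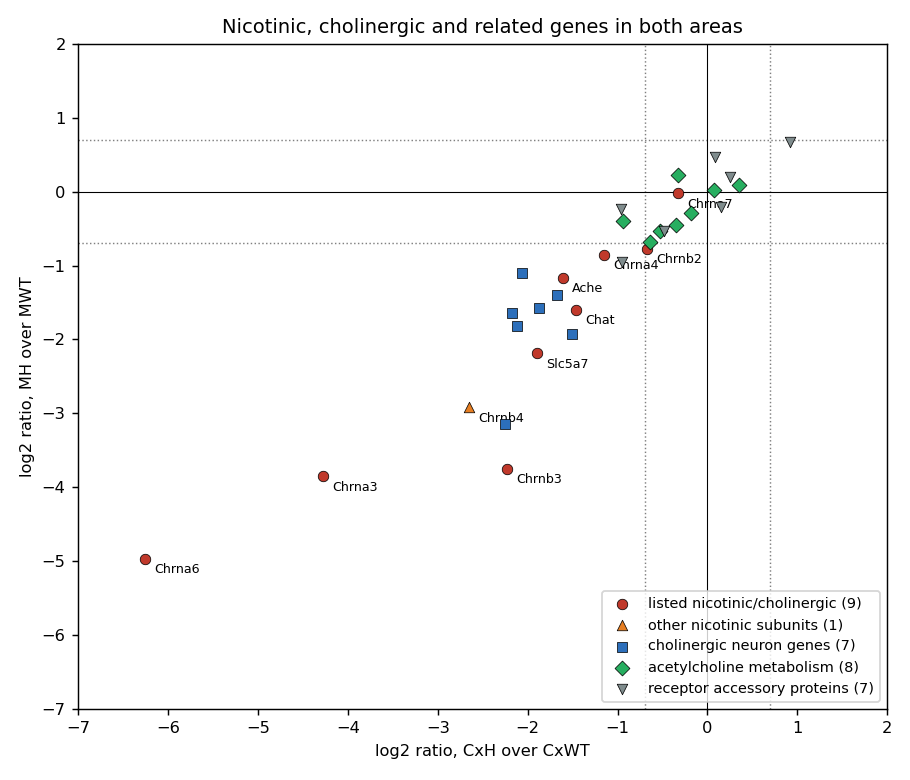
Log2 ratio of RPM in CxH vs. CxWT (horizontal) and MH vs. MWT (vertical) for the 9 genes and the related genes analysed, coloured by list, with the number of genes of each list in the legend. All 7 cholinergic neuron genes lie at -1.10 or lower on both axes, while the genes of choline metabolism lie between -0.94 and 0.36 on the horizontal axis.

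The counts of markers that follow stand beside 11.5% and 12.7% of all genes called lower in CxH and in MH, and for lists with few reads in CxH and MH they are limited by the coverage filter in the same way, so that they describe the libraries and support no direction. Markers of areas and neurons in which these genes are known differed between the same libraries, in part in the same direction and in part in the opposite one. Of 12 dopamine neuron markers 7 were analysed, and 6 of them were called lower in CxH and in MH, with the exception of Nr4a2, which was called higher in both. Their sum was 69.4 RPM in CxH and 74.6 in MH, against 296 in CxWT and 319 in MWT, and 1 of the 7 had 3 reads or fewer in CxH and in MH. Slc6a3, the dopamine transporter, had 0.416 RPM in CxH and 0.509 in MH, against 56.4 in CxWT and 49.7 in MWT. Of 6 habenula markers 5 were analysed, with sums of 58.4 RPM in CxH and 65.4 in MH, against 91.5 in CxWT and 74.6 in MWT, and 4 of the 5 were called lower in CxH and 3 in MH. They were not alike: Gpr151, a receptor of habenular neurons, had 0.493 RPM in CxH and 0.669 in MH, against 6.87 in CxWT and 6.53 in MWT, while Nwd2 had 29.8 and 35.6 RPM against 27.6 and 22.4 and was not called in either comparison.

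Of the midbrain and diencephalon markers, 9 of 10 were called lower in CxH and in MH, with medians of -5.24 and -4.18, and 4 of them had 3 reads or fewer in CxH and 1 in MH. Cortical excitatory markers went the other way, with 9 of 10 called higher in both and medians of 3.19 and 3.47. The 6 striatum markers, from a region rich in cholinergic interneurons and in Ache, summed to 709 RPM in CxH and 558 in MH against 242 in CxWT and 229 in MWT, thus opposite to Chat, Slc5a7 and Ache. The 3 hippocampus markers analysed summed to 37.0 to 50.7 RPM. Oligodendrocyte markers summed to 4526 RPM in CxH and 4694 in MH, against 8667 in CxWT and 6891 in MWT, and choroid plexus markers to 576 and 624 RPM against 133 and 253. The sums were 160.1 to 246 RPM for microglia and 1095 to 1528 RPM for astrocytes. The part of these markers in the ratios of the receptor and cholinergic genes was not tested.

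**Figure D5:**
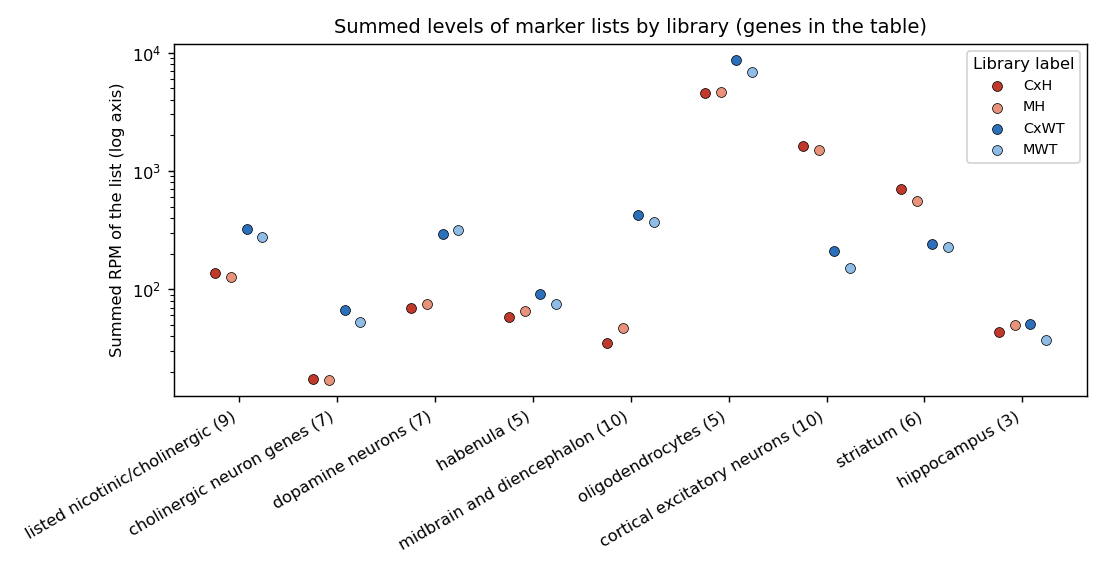
Summed RPM (log axis) of the 9 nicotinic and cholinergic genes and of marker lists in each library, with the number of genes summed in parentheses. The cholinergic, dopamine neuron and midbrain lists are lower in CxH and MH than in CxWT and MWT, and the cortical and striatum lists are higher.

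Of all genes with at least 100 reads over the libraries, those with the most similar profile over the 4 libraries were looked up for each gene, as the distance between centred log2 RPM. Chrna6 was nearest to Irx2 (distance 0.36), Calcr (0.43) and Tph2 (0.51), and Chrna3 to Slitrk6 (0.16), AW551984 (0.19) and Nhlh2 (0.21). Chrnb3, with its higher level in CxH than in MH, had En2 nearest at 0.11, a homeobox gene with 28 reads in CxH, 10 in MH, 127 in CxWT and 105 in MWT, and the next gene, Tfap2d, only at 0.50. Slc5a7 was nearest to Nts (0.12), Chat to Tmie (0.083) and Ache to Kcnip1 (0.067). Chrna4 was nearest to Kctd8 (0.067), Chrnb2 to Sall2 (0.040) and Chrna7 to Pik3c2b (0.013). Between the 9 genes themselves the closest were Chat and Ache (0.32) and the farthest Chrna6 and Chrna7 (5.41). A profile over 4 libraries has few points, and these distances are a description.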

How the data were processed

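Total RNA was extracted, polyA RNA purified and libraries made with the SOLiD whole transcriptome kit, and they were run on a SOLiD 3 Plus instrument. Reads were aligned with PASS 2.10 to NCBI37/mm9, taking the best hit with few mismatches and no gap. The authors counted reads that fell in a single gene and deposited raw, unnormalised counts for genes covered over enough of their length. The annotation they used is not given in the sources used here.

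Symbols came from RefSeq for 12690 of 12700 Entrez identifiers, and positions and lengths from GENCODE M1. Library totals for RPM were the aligned reads stated by the study. All genes were tested in the 6 pairs. The call rule was tested on simulated Poisson counts for CxH and CxWT, which held no variation between pools. The other steps were not tested in this way. The genes and lists were chosen with earlier results of these data known. Named were all the listed genes, Ids, the related lists, at most 4 genes per marker list (those with the most reads), and the 3 nearest profiles. Alternatives were column sums, TMM and DESeq2 scaling, filters on reads, other thresholds, adjusted p-values, an assumed variation of 0.2 between pools, 0.5 added to counts, a correction for GC content and length, and another transcript length. Trying the scalings and the correction on the difference between areas was chosen after seeing the data. The tools were R 4.3.3 (edgeR 4.0.16, DESeq2 1.42.0, mgcv 1.9.3) and Python 3.11.15 (scipy 1.17.1, pandas 2.3.3, numpy 2.4.6, matplotlib 3.10.9). Raw reads were not used here.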

Additional observations from a re-analysis of the deposited data

Results flagged for a closer look

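Ids differed in direction between the areas and between the genotypes as labelled. Its log2 ratio was -1.39 in CxH vs. CxWT and 1.24 in MH vs. MWT, and it was -1.44 between CxH and MH and 1.19 between CxWT and MWT. The difference was not tested, because each condition was 1 library. Of the 9 receptor and cholinergic genes, 7 were called lower in both CxH vs. CxWT and MH vs. MWT, beside 6.46% of all genes.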

How the results depend on the processing

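With at least 100 reads required in both libraries, 6 of the 9 genes could be tested in every pair but CxWT vs. MWT, since Chrna3, Chrna6 and Chrnb3 left the test. The number called was then 4 in CxH vs. CxWT, 5 in MH vs. MWT, 0 in CxH vs. MH, 4 between CxH and MWT and 5 between MH and CxWT. The share of all genes called under this filter is not given here, so these numbers are a description. The other alternatives kept each number of called genes within 1.5 times. A log2 threshold of 1 ended the calls of Chrna4 in MH vs. MWT and CxH vs. MWT and of Chrnb2 in MH vs. MWT and MH vs. CxWT, and an assumed variation of 0.2 ended those of Chrna4 in CxH vs. MWT and Chrnb2 in MH vs. MWT. The correction for GC content and length made Chrnb2 pass in CxH vs. CxWT (-0.82) and CxH vs. MWT (-0.91).

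The sign changed only for ratios that were not called. With the GC and length correction the log2 ratio became 0.023 for Chrna3, -0.082 for Chrnb2, 0.073 for Chrnb3 and -0.0099 for Ache in CxWT vs. MWT, -0.035 for Chrna4 and 0.24 for Slc5a7 in CxH vs. MH, and 0.33 for Chrna7 in MH vs. MWT. Chrna7 had 0.040 with TMM and 0.041 with DESeq2 size factors in MH vs. MWT, and with column sums -0.013 in CxH vs. MH and -0.093 in CxH vs. MWT, where Chrnb2 in CxWT vs. MWT had -0.0097. The cause was not tested. Adding Chat and Slc18a3 was not run, because Slc18a3 was not analysed here. The labels carry no replicate numbers. Each genotype was 1 pool of mice, so pool and genotype cannot be told apart, and a fit of genotype and area together over the 4 libraries was not run.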
